A study of Mus musculus with 16 samples.

Results

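Collagen genes encode the chains that assemble, as triple helices, into the main structural proteins of connective tissue. The set described here held every probe of the array whose gene symbol names a collagen chain (Col, a type number, the letter a and a chain number), which gave 59 probes for 37 genes, out of 25697 probes and 16593 named genes in all. These genes were 7 chains of fibrillar collagens outside cartilage, 8 chains of cartilage collagens, 9 chains of basement membranes and 13 other chains. RefSeq's gene table lists 44 mouse genes with such symbols, and the 7 without a probe were not analysed here. The question was how the levels of these transcripts differ between Ali35 mice, a mutant line with a mutation in Shc2, and wild-type (WT) mice.

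The 4 groups were Ali35 bone and WT bone from mice aged 120 days, and Ali35 brain and WT brain from mice aged 3 days. All mice were of the strain C3H/HeJ, with 4 mice per group and 1 one-colour Illumina bead array per mouse. The labels name the mutated gene, which encodes an adaptor protein of receptor tyrosine kinase signalling, but give no sex, dissection, chip or batch, and tissue and age changed together. The table had no probe named Shc2, so the mutated gene itself could not be checked.

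Collagen chains are made as procollagens in the endoplasmic reticulum, modified on proline and lysine, trimmed outside the cell and crosslinked. Type I collagen, built from the chains of Col1a1 and Col1a2, forms the fibrils on which bone mineral is laid down by osteoblasts. Type II collagen, with types IX and XI, forms the fibrils of cartilage, and type X is made by hypertrophic chondrocytes of the growth plate. Type IV collagen forms the sheet-like network of basement membranes under endothelium and around muscle fibres, and in the brain it lies mainly around blood vessels. Type VI collagen forms beaded filaments close to cells.

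Signal was read from normalized intensities, and a probe counted as measured in a tissue when it reached an intensity of 16 on at least 4 of the 8 arrays. On each bone array 47.3% of probes reached 16, and on each brain array 42.3%. Across the probes measured in each tissue, on log2 values with those below 16 set to 16, arrays of one group correlated at r = 0.977 to 0.991 (bone) and r = 0.983 to 0.992 (brain). The labelled tissues were checked against defining markers. Of the 9 osteoblast marker genes with a probe, 8 were measured in bone, and the bone extracts also carried all 12 skeletal muscle markers and all 9 marrow and blood markers with a probe. In brain, 5 of 8 neuron markers and 7 of 8 glia markers were measured, while Tubb3, Snap25 and Nefl lay below 16 on all brain arrays.

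One bone array stood apart from its group by sex-linked transcripts. In Ali35 bone replicate 1 the Xist probes, which detect the RNA of the inactive X chromosome, had intensities of 221 and 167, while no other bone array exceeded 11.7 and 7.17. The Y-linked Eif2s3y had -2.50 on that array, against 409.6 to 686 elsewhere in bone. Collagen genes and named partner genes whose call changes without this array are given with and without it. In tissue extracts such as these, more cells of a type and more RNA per cell cannot be told apart.

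In Ali35 bone 12 of the 20 measured collagen genes were higher than in WT bone and none was lower (limma, Benjamini-Hochberg adjusted p under 0.05 over all 12223 probes measured in bone). Over all 8700 genes measured in bone, 13.5% were called higher and 10.7% lower. At an unadjusted p under 0.05 the count was 15 of 20 (75.0%), beside 3319 of all 8700 genes (38.1%). The 12 genes were Col1a1, Col1a2 and Col5a1 among the fibrillar chains, Col2a1, Col9a2 and Col27a1 among the cartilage chains, Col4a1, Col4a2 and Col15a1 among the basement membrane chains, and Col6a1, Col6a2 and Col16a1 among the others. All 4 Ali35 arrays lay above all 4 WT arrays for 12 of the 20 measured collagen genes, beside 14.6% of all genes measured in bone. These were the same 12 genes, called from the same arrays, so the separation is no further support for the calls. Each of the 12 reached 16 on all 8 bone arrays, so none was measured through the Ali35 arrays alone. Over the 20 genes the median log2 change (Ali35 minus WT) was 0.71, beside -0.03 over all genes measured, and 19 of the 20 values were positive. The other 17 collagen genes were not measured in bone and carry no test. Without Ali35 bone replicate 1 the count of called collagen genes was 10, and Col4a1 and Col16a1 were the ones lost. In that fit 21% of all probes were called either way, beside 24.6% in the main fit.

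**Figure D1:**
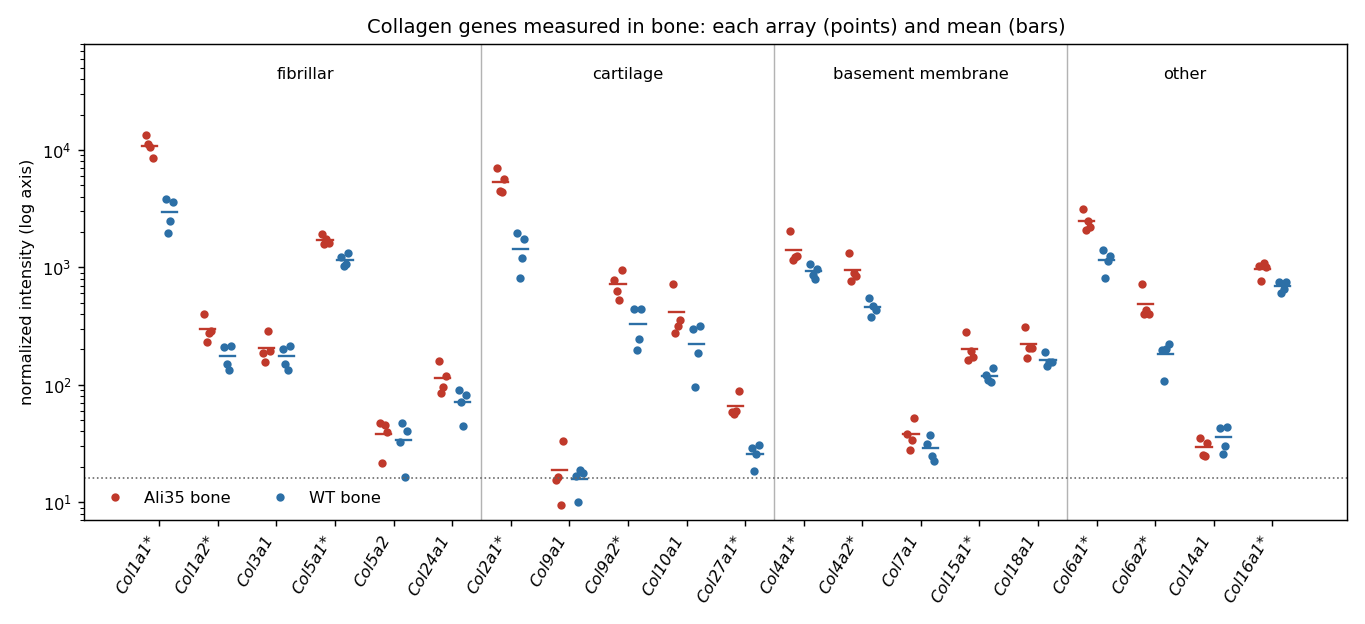
Normalized intensity (log axis) of the 20 collagen genes measured in bone, each by its brightest probe. Points are single arrays (Ali35 left, WT right, 4 each), bars are means, an asterisk marks an adjusted p under 0.05, and the dotted line is the intensity of 16. For the 12 marked genes the Ali35 points all lie above the WT points, as for Col1a1 at 8566 to 13343 in Ali35 bone against 1957 to 3856 in WT bone; heights of different genes come from different probes and are not comparable.

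The called genes lie on chromosome 11 (Col1a1), 6 (Col1a2), 2 (Col5a1), 15 (Col2a1), 4 (Col9a2, Col27a1, Col15a1 and Col16a1), 8 (Col4a1 and Col4a2) and 10 (Col6a1 and Col6a2). Col4a1 and Col4a2 are next to each other in RefSeq's gene order, and so are Col6a1 and Col6a2. RefSeq's promoter table (GRCm38.p6) held 33 windows for 30 of the 37 genes, 10 of the 12 called ones among them, but none for Col1a1 or Col2a1. The upstream 250 bases of 4 genes called higher in bone are shown because they cover a fibrillar chain, a cartilage chain and the neighbouring pair of type VI chains. They are written 5′ to 3′ on the gene's strand and end at the base before the annotated start, with capitals marking the motifs searched.
Col1a2, chr6:4505368-4505617, plus strand: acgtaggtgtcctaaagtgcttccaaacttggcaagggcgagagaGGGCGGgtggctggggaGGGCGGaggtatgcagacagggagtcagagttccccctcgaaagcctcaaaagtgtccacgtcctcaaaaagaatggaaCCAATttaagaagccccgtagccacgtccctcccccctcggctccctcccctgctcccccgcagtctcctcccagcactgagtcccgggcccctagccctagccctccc
Col9a2, chr4:121039316-121039565, plus strand: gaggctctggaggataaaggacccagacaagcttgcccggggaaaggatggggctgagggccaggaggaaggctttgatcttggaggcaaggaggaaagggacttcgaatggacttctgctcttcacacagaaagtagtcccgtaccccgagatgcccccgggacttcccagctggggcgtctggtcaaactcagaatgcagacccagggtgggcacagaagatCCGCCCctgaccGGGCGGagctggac
Col6a1, chr10:76726045-76726294, minus strand: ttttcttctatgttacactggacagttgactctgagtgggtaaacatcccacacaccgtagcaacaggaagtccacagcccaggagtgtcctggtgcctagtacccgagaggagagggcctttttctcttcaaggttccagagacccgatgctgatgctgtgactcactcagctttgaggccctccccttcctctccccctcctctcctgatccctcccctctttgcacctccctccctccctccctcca
Col6a2, chr10:76623631-76623880, minus strand: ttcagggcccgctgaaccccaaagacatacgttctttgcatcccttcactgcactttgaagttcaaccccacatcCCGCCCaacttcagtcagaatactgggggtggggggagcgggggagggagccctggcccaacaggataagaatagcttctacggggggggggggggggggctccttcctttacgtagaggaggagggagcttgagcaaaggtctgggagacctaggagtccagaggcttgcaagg

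The motifs searched on both strands were the CCAAT box (CCAAT or ATTGG), the TATA box (TATAAA or TTTATA), the GC box (GGGCGG or CCGCCC) and a Sox core (ACAATG or CATTGT), and overlapping matches were counted separately. The Col1a2 window held a CCAAT box starting at -109 and GC boxes at -205 and -188, counted back from the annotated start. The Col9a2 window held GC boxes at -26 and -14, the Col6a2 window shown held one at -175, and the Col6a1 window held none of these letters. No match overlapped another in these 4 windows. A second Col6a2 window, not shown, held GC boxes at -67, -15 and -11, those at -15 and -11 overlapping. Among the 33 collagen windows 12 held a CCAAT box, 5 a TATA box, 19 a GC box and 1 the Sox core. Of all 32851 windows of the same length, 33.9% held the CCAAT box, 12.4% the TATA box, 32.7% the GC box and 10.7% the Sox core. These are matches of letters only.

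Among the fibrillar chains, 3 of the 6 measured were higher in Ali35 bone, with a median log2 change of 0.63. Col1a1, the more plentiful chain of the type I molecule, read 13343, 11145, 10608 and 8566 in Ali35 bone replicates 1 to 4, against 3856, 1957, 2467 and 3616 in WT bone. The groups were far apart, and the lowest Ali35 array was above the highest WT array. The means were 10915 ± 1963 and 2974 ± 909.5 (SD, n = 4 mice each), a log2 change of 1.91 ± 0.23 SE (3.76-fold, limma, adjusted p = 0.001).

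Its partner chain Col1a2 read 402, 234, 278 and 286 in Ali35 bone, against 209, 149, 135 and 212 in WT bone. The ranges did not overlap, but Ali35 replicate 2 stood only just above WT replicates 1 and 4. The log2 change was 0.76 ± 0.20 (1.70-fold, limma, adjusted p = 0.0234). It lost its call without WT bone replicate 2 (log2 0.69, adjusted p = 0.0609) or WT bone replicate 3 (log2 0.64, adjusted p = 0.0541).

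Because both chains enter the same molecule, their changes were set against each other within each array. The log2 value of Col1a1 minus that of Col1a2 was 5.05, 5.58, 5.25 and 4.91 in Ali35 bone, against 4.20, 3.71, 4.19 and 4.09 in WT bone. Every Ali35 array lay above every WT array in this difference. The means were 5.20 ± 0.29 and 4.05 ± 0.23 (SD, n = 4 mice each), 1.15 apart on the log2 scale (two-sided exact permutation test, p = 0.0286, the smallest that 70 regroupings can give). The result says that the 2 probes changed unequally between the genotypes; it does not give the amounts of the 2 transcripts.

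Col5a1, a chain of the minor collagen that starts fibril assembly and limits fibril width, read 1907, 1595, 1732 and 1605 in Ali35 bone, against 1217, 1019, 1063 and 1319 in WT bone. The arrays of each genotype lay close together, with a gap between the groups. The change came to log2 0.57 ± 0.12 (1.49-fold, limma, adjusted p = 0.00929).

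The other 3 measured fibrillar chains were not called. Col3a1, the chain of type III collagen of vessels and loose connective tissue, read 188, 157, 289 and 196 in Ali35 bone, against 202, 149.8, 135 and 214 in WT bone. The ranges overlapped in part, with Ali35 replicate 3 above every WT array and WT replicates 2 and 3 below every Ali35 array. The log2 change of 0.23 ± 0.21 had an adjusted p of 0.446 (limma). Col5a2 read 21.7 to 46.9 in Ali35 bone and 16.3 to 47.6 in WT bone (log2 0.21 ± 0.35, limma, adjusted p = 0.68). Col24a1, a fibrillar chain of developing bone, had a log2 change of 0.68 ± 0.25 on its brightest probe (limma, adjusted p = 0.0717), while a dimmer probe with 0.54 ± 0.16 was called (adjusted p = 0.0312) and lost its call without Ali35 bone replicate 1 (adjusted p = 0.0698) and without each of 4 other arrays. Its remaining probe stayed below 16, as did a second Col3a1 probe, and Col5a3 reached 16 on 1 Ali35 array only.

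Among the cartilage chains, 3 of the 5 measured were higher in Ali35 bone, with a median log2 change of 1.18. Col2a1, the chain of the main cartilage collagen, read 6972, 4497, 4391 and 5640 in Ali35 bone, against 1958, 805, 1213 and 1746 in WT bone. The lowest Ali35 array was above the highest WT array. The means were 5375 ± 1206 and 1431 ± 522 (SD, n = 4 mice each), a log2 change of 1.97 ± 0.27 (3.91-fold, limma, adjusted p = 0.00183). Its second probe gave 2.02 ± 0.31 (adjusted p = 0.00306), so the probes were alike in sign and call.

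Col9a2, a chain of type IX collagen, which sits on the surface of type II fibrils, read 779, 631, 526 and 953 in Ali35 bone, against 442, 196, 246 and 438 in WT bone. WT replicates 1 and 4 were high and 2 and 3 low, and all stayed below the Ali35 arrays. On the log2 scale the change was 1.18 ± 0.29 (2.27-fold, limma, adjusted p = 0.0179). Col27a1, a fibrillar chain of cartilage and of its border with bone, read 58.9, 56.4, 59.5 and 88.8 in Ali35 bone, against 28.9, 18.6, 25.5 and 30.9 in WT bone. Ali35 replicates 1 to 3 were nearly equal and replicate 4 stood above them. This was a log2 change of 1.34 ± 0.19 (2.54-fold, limma, adjusted p = 0.00225).

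Col10a1, the marker chain of hypertrophic chondrocytes, was not called. It read 719.6, 277, 319.5 and 359 in Ali35 bone, against 297, 95.4, 186 and 319 in WT bone. Ali35 replicate 1 stood high in its group and WT replicate 2 low in its own, and the groups overlapped. The log2 change was 0.94 ± 0.40 (limma, adjusted p = 0.116), and it was 0.65 ± 0.38 without Ali35 bone replicate 1 (adjusted p = 0.253). Col9a1 was close to the limit of 16, at 9.44 to 33.4 in Ali35 bone and 9.96 to 18.8 in WT bone (log2 0.17 ± 0.23, adjusted p = 0.611). Col9a3, Col11a1 and Col11a2, which complete the type IX and XI molecules, were not measured: Col11a2 reached 16 on 1 array of each genotype and the others on none.

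Other genes of cartilage were also higher, where 13.5% of all genes measured in bone were called higher and 10.7% lower. Of 5 measured chondrocyte markers 3 were higher and none lower in Ali35 bone: Chad, a matrix protein that binds collagen (log2 1.71 ± 0.18, limma, adjusted p = 0.000639), Acan, the cartilage proteoglycan (1.89 ± 0.29, adjusted p = 0.00306), and Comp, a matrix protein that binds collagen IX (0.56 ± 0.13, adjusted p = 0.0145). Matn1 (0.74 ± 0.48, adjusted p = 0.286) and the remaining measured marker were not called. The summed intensity of the 10 chondrocyte markers with a probe was 4381 to 5402 in Ali35 bone, against 1344 to 2211 in WT bone, without overlap. Most of this sum was Chad, at 3390 to 4098 in Ali35 bone and 806 to 1479 in WT bone, so it is no separate support for the other markers. Matn3, Cnmd and Epyc lay below 16 on all bone arrays. The part of cartilage content in the collagen values was not tested.

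Type I collagen is a product of osteoblasts, whose markers were measured beside it. The shares over all genes measured in bone were 13.5% called higher and 10.7% lower. Of 8 osteoblast markers measured, Sp7, a transcription factor needed for osteoblast formation (log2 1.06 ± 0.11, limma, adjusted p = 0.000645), and Alpl, the alkaline phosphatase of mineralizing cells (1.04 ± 0.20, adjusted p = 0.00702), were higher and none was lower. Omd, a matrix proteoglycan of bone, had -0.46 ± 0.23 (adjusted p = 0.174), and Bglap, which encodes osteocalcin, had -0.22 ± 0.20 (adjusted p = 0.455). The summed intensity of the 9 markers with a probe was 33880 to 50931 in Ali35 bone, against 33720 to 44104 in WT bone, so the groups overlapped. The part of osteoblast content in the collagen values was not tested.

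**Figure D2:**
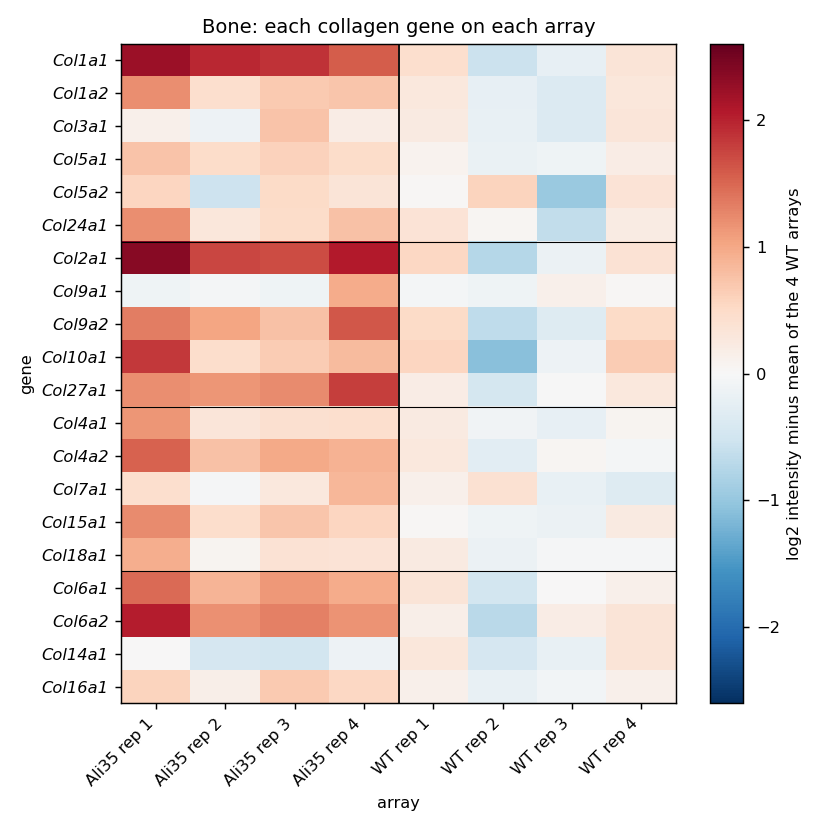
Each of the 20 collagen genes measured in bone (rows, by class) on each of the 8 bone arrays (columns, Ali35 left, WT right), as log2 intensity minus the mean of the 4 WT arrays. Ali35 replicate 1 is the darkest red column, being the highest Ali35 array for 14 of the 20 genes, and WT replicate 2 is the lowest WT array for 13.

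Among the basement membrane chains, 3 of the 5 measured were higher in Ali35 bone, with a median log2 change of 0.58. Col4a2 read 1319, 769.5, 894 and 843 in Ali35 bone, against 547, 375, 469.6 and 437 in WT bone. Its lowest Ali35 array was well above its highest WT array. The means were 957 ± 247 and 457 ± 71.6 (SD, n = 4 mice each), a log2 change of 1.05 ± 0.18 (2.07-fold, limma, adjusted p = 0.00496).

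Col4a1, which with Col4a2 makes the common type IV molecule, read 2037, 1148, 1222 and 1247 in Ali35 bone, against 1076, 867, 796 and 964 in WT bone. Ali35 replicate 1 was far above the other Ali35 arrays, and replicate 2 was close to the highest WT array. In log2 units the change was 0.58 ± 0.19 (1.49-fold, limma, adjusted p = 0.0482). Without Ali35 bone replicate 1 it was 0.39 ± 0.13 (adjusted p = 0.057). The call was lost when any of 7 of the 8 arrays was left out, all but Ali35 replicate 2, with adjusted p up to 0.107.

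Col15a1, a basement membrane chain of muscle and vessels, read 279, 163, 195 and 174 in Ali35 bone, against 122, 109.6, 106.5 and 139 in WT bone. All Ali35 arrays lay above all WT arrays. The log2 change was 0.74 ± 0.17 (1.67-fold, limma, adjusted p = 0.0155). Col18a1, whose end piece is released as endostatin, read 168 to 308 in Ali35 bone and 144 to 189 in WT bone (0.43 ± 0.18, limma, adjusted p = 0.103). Col7a1, the chain of anchoring fibrils, read 27.9 to 51.7 in Ali35 bone and 22.5 to 37.4 in WT bone (0.39 ± 0.21, limma, adjusted p = 0.21). The chains Col4a3, Col4a4, Col4a5 and Col4a6, found in kidney and other specialised membranes, reached 16 on no bone array.

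Other components of basement membranes were also higher in Ali35 bone: 4 of 7 measured partner genes were called higher and none lower. Beside them stood 13.5% of all genes measured in bone called higher and 10.7% lower. Without Ali35 bone replicate 1 there were 4 higher and 1 lower, beside 21% of all probes called either way in that fit. Agrn, the heparan sulfate proteoglycan agrin, had a log2 change of 0.95 ± 0.12 (limma, adjusted p = 0.00141). Hspg2, which encodes perlecan, had 0.95 ± 0.17 (adjusted p = 0.00507). The laminin chains Lamc1 (0.55 ± 0.12, adjusted p = 0.0108) and Lamb2 (0.60 ± 0.17, adjusted p = 0.034) completed the called genes, and Lamb2 lost its call without Ali35 bone replicate 4 or any WT array, with adjusted p up to 0.0889. The gene that was lower without Ali35 bone replicate 1 was the laminin chain Lama2, with -0.60 ± 0.22 over all arrays (limma, adjusted p = 0.0714) and -0.76 ± 0.21 without that array (adjusted p = 0.0335).

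Cell types rich in basement membrane were measured beside these chains, with 13.5% of all genes measured in bone called higher and 10.7% lower. Of 6 measured endothelial markers, Eng (1.02 ± 0.13, adjusted p = 0.00113) and Cdh5 (0.72 ± 0.13, adjusted p = 0.00637) were higher and none was lower. Emcn, a surface sialomucin, had -0.39 ± 0.13 over all arrays (limma, adjusted p = 0.0586) and was called lower without Ali35 bone replicate 1 (-0.46 ± 0.13, adjusted p = 0.0427), and Flt1 had 0.36 ± 0.17 (adjusted p = 0.151). The 7 endothelial markers with a probe summed to 1860 to 2402 in Ali35 bone and 1808 to 1929 in WT bone. Of 12 skeletal muscle markers 4 were higher and none lower, among them Ryr1, the calcium release channel (1.32 ± 0.20, adjusted p = 0.00283), and Myh4, a fast myosin (1.05 ± 0.21, adjusted p = 0.00785). The other called ones, Actn3 (0.73 ± 0.19, adjusted p = 0.0223) and Atp2a1 (0.43 ± 0.13, adjusted p = 0.039), lost their calls without Ali35 bone replicate 1 (0.62 ± 0.19, adjusted p = 0.0501, and 0.37 ± 0.14, adjusted p = 0.0829), which left 2 muscle markers called. Leaving out several other arrays did the same, with adjusted p up to 0.0572 for Actn3 and 0.11 for Atp2a1. In the fit without Ali35 bone replicate 1, 21% of all probes were called either way. The summed muscle markers were 129532 to 189307 in Ali35 bone and 134071 to 148816 in WT bone. Both sums overlapped between the genotypes, Kdr was the only endothelial marker below 16 on all bone arrays, and the part of these cells in the collagen values was not tested.

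Among the other chains, 3 of the 4 measured were higher in Ali35 bone, with a median log2 change of 0.80. Col6a1 read 3133, 2099, 2465 and 2220 in Ali35 bone, against 1419, 816, 1142 and 1243 in WT bone. The groups were well separated. The means were 2479 ± 462 and 1155 ± 253 (SD, n = 4 mice each), a log2 change of 1.11 ± 0.19 (2.16-fold, limma, adjusted p = 0.00429). A second Col6a1 probe gave 0.88 ± 0.16 (adjusted p = 0.0055), and the last one stayed below 16 on all arrays.

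Col6a2, the neighbouring gene whose chain joins that of Col6a1 in the same molecule, read 724, 399, 436 and 398 in Ali35 bone, against 196, 108, 202 and 223 in WT bone. Ali35 replicate 1 was far above the other 3, and these were still above every WT array. This was a log2 change of 1.43 ± 0.26 (2.69-fold, limma, adjusted p = 0.00598), and 1.22 ± 0.23 without Ali35 bone replicate 1 (adjusted p = 0.0115).

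Col16a1, a chain that lies on the surface of other fibrils, read 1028, 767, 1098 and 1000 in Ali35 bone, against 749.6, 601, 655 and 750.4 in WT bone. Ali35 replicate 2 was the lowest of its group and only just above WT replicates 1 and 4. On the log2 scale the change was 0.49 ± 0.14 (1.41-fold, limma, adjusted p = 0.0285). The call was lost without Ali35 bone replicates 1, 3 or 4 or WT bone replicates 2, 3 or 4, each in turn, with log2 changes from 0.43 to 0.54 and adjusted p from 0.0514 to 0.0731. Col14a1, another chain of this kind, was the only measured collagen gene with a negative value, at 24.9 to 34.9 in Ali35 bone and 25.6 to 44.0 in WT bone (-0.26 ± 0.20, limma, adjusted p = 0.358).

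The 9 other chains not measured in bone were Col6a6, Col8a2, Col13a1, Col17a1, Col19a1, Col23a1, Col25a1, Col26a1 and Col28a1. Of these, Col17a1, a transmembrane chain of epithelial attachment sites, came nearest to the limit: each of its 3 probes reached 16 on 3 of 8 bone arrays, and they read 58.9 at most in Ali35 bone and 36.4 at most in WT bone.

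Within bone the collagen genes shared a pattern over the arrays, which was not particular to them. Ali35 replicate 1 was the highest Ali35 array for 14 of the 20 measured genes and Ali35 replicate 2 the lowest for 14. In WT bone, replicate 2 was the lowest array for 13 genes, while replicates 4 and 1 were the highest for 9 and 8. All these genes were read from the same extracts, so the shared ranks are a description of 8 arrays. The summed fibril partners had a like order, highest in Ali35 bone on replicate 1 (39842) and lowest on replicate 2 (32860). In WT bone they were lowest on replicate 2 (26353). The summed chondrocyte markers were instead highest in Ali35 bone on replicate 4 (5402).

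The genes that make, bind and break down collagen were counted by lists, beside 13.5% of all genes measured in bone called higher and 10.7% lower. Of 21 measured genes for chain modification, folding, trimming and crosslinking, 6 were higher and none was lower in Ali35 bone. Without Ali35 bone replicate 1 there were 2 higher (Plod3 and Crtap) and 1 lower, beside 21% of all probes called either way in that fit. The lower gene was Tmem38b, an ion channel of the endoplasmic reticulum, which had -0.29 ± 0.10 over all arrays (limma, adjusted p = 0.0637) and -0.34 ± 0.10 without that array (adjusted p = 0.0424). Those of lowest p were Plod3, a lysyl hydroxylase (log2 0.71 ± 0.12, limma, adjusted p = 0.00477), Crtap, part of a complex that hydroxylates prolines (0.50 ± 0.13, adjusted p = 0.0216), Bmp1, a procollagen protease (0.46 ± 0.12, adjusted p = 0.026), and Colgalt2, a collagen galactosyltransferase (0.60 ± 0.17, adjusted p = 0.0295). The calls of Bmp1 and Colgalt2 were lost without Ali35 bone replicate 1 (0.39 ± 0.12, adjusted p = 0.0554, and 0.61 ± 0.19, adjusted p = 0.0552) and without several other arrays, with adjusted p up to 0.0734. Of 4 measured collagen receptors Itga11, an integrin chain that binds type I collagen, was higher (0.77 ± 0.15, adjusted p = 0.00702).

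Of 10 measured genes of collagen breakdown, Mmp9, a gelatinase made by osteoclasts, and Mmp14, a membrane-bound collagenase, were higher, with log2 changes of 0.76 ± 0.12 and 0.63 ± 0.14 (limma, adjusted p = 0.00355 and 0.0135). Mmp8, the neutrophil collagenase, was lower (-0.45 ± 0.14, adjusted p = 0.0429), a call lost without any one array except WT bone replicate 4 (-0.43 ± 0.15, adjusted p = 0.0792, without Ali35 bone replicate 1). Fibril-associated proteins moved both ways, as did all genes measured in bone (13.5% called higher and 10.7% lower). Prelp (1.03 ± 0.15, adjusted p = 0.00213) and Bgn (0.75 ± 0.12, adjusted p = 0.00306), both small leucine-rich proteoglycans, and Tnxb, a tenascin (0.52 ± 0.14, adjusted p = 0.0227), were higher. Tnxb lost its call without WT bone replicate 2, 3 or 4, with adjusted p up to 0.0662. Ogn (-0.71 ± 0.13, adjusted p = 0.00517) and Lum (-0.55 ± 0.17, adjusted p = 0.0446), of the same proteoglycan family, were lower, with Lum's call lost when any of 6 arrays was left out (adjusted p up to 0.122). Without Ali35 bone replicate 1 Lum had -0.61 ± 0.19 (adjusted p = 0.0532), while Dpt, dermatopontin, was called lower at -0.65 ± 0.17 (adjusted p = 0.0307), with -0.41 ± 0.24 over all arrays (adjusted p = 0.243). Among 7 measured regulators of collagen genes, Sp7 and Tgfb1, a growth factor that raises collagen transcription (1.37 ± 0.18, adjusted p = 0.00161), were higher and none was lower. The tendon and fibroblast markers had 1 lower gene of 7, Lum, and a summed intensity of 11090 to 12247 in Ali35 bone and 11482 to 16414 in WT bone.

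**Figure D3:**
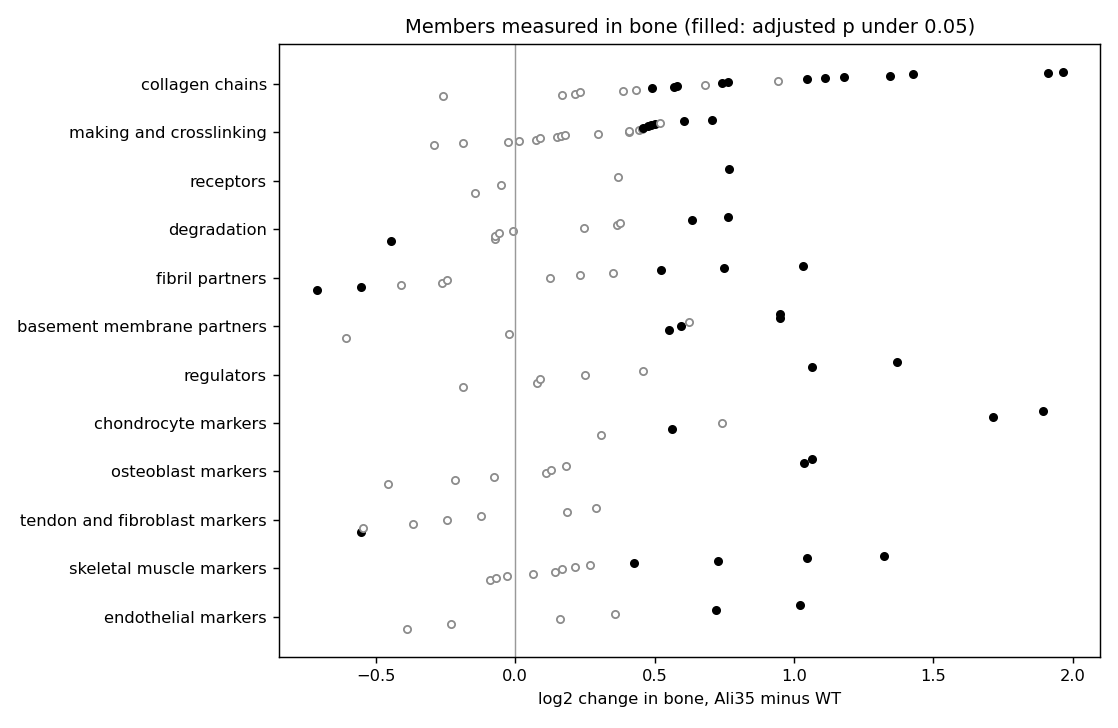
Log2 change in bone (Ali35 minus WT) of each measured member of the collagen set and of 11 related lists, with 1 point per gene and filled points for an adjusted p under 0.05. The collagen chains have 12 filled points, all to the right of 0 and up to 1.97, while fibril partners and degradation genes have filled points on both sides.

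In brain at 3 days no collagen gene was called. Of 37 genes 15 were measured, 9 with a positive and 6 with a negative log2 change, and 1 (6.67%) had an unadjusted p under 0.05, beside 1858 of all 7844 genes (23.7%). Over all 7844 genes measured in brain 1.95% were called higher and 1.49% lower in Ali35. The 15 genes had a median log2 change of 0.03, beside 0.02 over all genes. None of the 15 had all Ali35 arrays above or all below the WT arrays, which was the case for 9.82% and 6.63% of all genes measured in brain. The remaining 22 genes were not measured there, and Col4a5, Col23a1 and Col26a1 were measured in brain and not in bone. The signs depended in part on Ali35 brain replicate 1. Without it the log2 changes of Col1a1 (-0.35) and Col15a1 (-0.14) turned negative. No collagen gene was called in that fit, beside 1.04% of all probes.

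The basement membrane chains were those with most measured members in brain, 6 of 9. Col4a1 read 399, 446, 405 and 405 in Ali35 brain, against 431, 496, 442 and 432 in WT brain (log2 -0.12 ± 0.09, limma, adjusted p = 0.444). Col4a2 read 329, 345, 285 and 256 in Ali35 brain, against 348, 324, 371.5 and 316 in WT brain (-0.17 ± 0.11, limma, adjusted p = 0.40). For both, the Ali35 and WT arrays overlapped. Col4a5, Col7a1, Col15a1 and Col18a1 had log2 changes between -0.14 and 0.13, with the smallest adjusted p at 0.565.

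Of the fibrillar chains Col1a1, Col3a1 and Col5a1 were measured in brain, and in each Ali35 brain replicate 1 was far above the other Ali35 arrays. Col1a1 read 139, 46.1, 47.4 and 35.7 in Ali35 brain, against 59.3, 49.7, 64.4 and 46.9 in WT brain. Its log2 change of 0.07 ± 0.35 (limma, adjusted p = 0.925) turned to -0.35 ± 0.15 without Ali35 brain replicate 1 (adjusted p = 0.218). Col3a1 read 32.5, 15.8, 18.2 and 17.8 in Ali35 brain, against 17.1, 15.9, 17.1 and 18.5 in WT brain. Apart from Ali35 replicate 1 these values lay close to the limit of 16. Col5a1 read 209.7, 137, 126 and 135 in Ali35 brain, against 110, 116, 130.5 and 112 in WT brain, and its 0.35 ± 0.15 was not called (limma, adjusted p = 0.21). Without Ali35 brain replicate 1 the Col5a1 change was 0.18 ± 0.10 (limma, adjusted p = 0.331).

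Some bone transcripts were also highest on that brain array, clearly so only for Ibsp. Ibsp read 123 in Ali35 brain replicate 1 and at most 8.29 on the other 7 brain arrays. Bglap read 17.2 there and at most 10.2 elsewhere, and Bglap2 read 20.5 and at most 9.55, both close to the limit of 16. Ifitm5 read 9.91 and at most 2.47, below that limit. The type I chain Col1a2 was not highest there, at 15.5 against 20.9 on Ali35 brain replicate 3. Alpl read 33.7 there and 17.8 to 32.6 elsewhere, Sp7 reached 16 only on Ali35 brain replicate 3, and Phex, Dmp1 and Omd stayed below 16 on all brain arrays. The summed intensity of the 9 osteoblast markers with a probe was 220 on Ali35 brain replicate 1, of which Ibsp gave 123. It was 50.4 to 63.2 on the other Ali35 brain arrays and 39.2 to 63.9 on the WT brain arrays. The part of bone tissue in the brain collagen values was not tested.

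**Figure D4:**
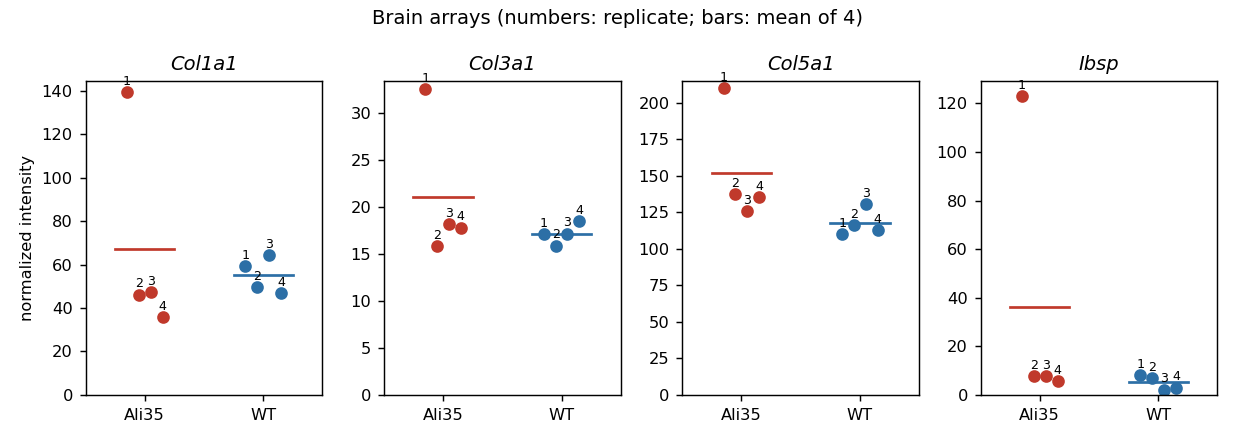
Normalized intensity of Col1a1, Col3a1, Col5a1 and the bone marker Ibsp on each brain array (Ali35 left, WT right), with replicate numbers beside the points and bars for the mean of 4. Ali35 brain replicate 1 is the highest point in all 4 panels, at 139 for Col1a1 and 123 for Ibsp.

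The other measured chains in brain were also not called. Col9a2, the only cartilage chain measured, read 64.3 to 94.8 in Ali35 brain and 58.9 to 85.0 in WT brain (log2 0.05 ± 0.16, limma, adjusted p = 0.869). Col6a1 read 173, 104.5, 123 and 105 in Ali35 brain, against 134.5, 144, 144 and 133 in WT brain (-0.16 ± 0.15, limma, adjusted p = 0.547). Ali35 replicate 1 was the highest and the other 3 Ali35 arrays the lowest of the 8. Col16a1 had -0.31 ± 0.16 (limma, adjusted p = 0.28), Col23a1, a transmembrane chain, 0.24 ± 0.11 (adjusted p = 0.231), Col26a1 -0.14 ± 0.12 (adjusted p = 0.505) and Col6a2 0.06 ± 0.10 (adjusted p = 0.746). Without Ali35 brain replicate 1, Col6a1 had -0.325 ± 0.10 (limma, adjusted p = 0.12) and Col16a1 -0.48 ± 0.12 (adjusted p = 0.073), still not called. Col1a2, Col2a1 and Col10a1 were not measured in brain. Col1a2 read 11.1 to 20.9 in Ali35 brain and 5.57 to 9.81 in WT brain, and Col2a1 read 7.48 to 13.1 in Ali35 brain and 14.4 to 23.9 in WT brain, both around or below the limit and untested. The other Col2a1 probe read 5.80 to 14.3 in Ali35 brain and 3.915 to 21.7 in WT brain, so its ranges overlapped.

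The changes of the 12 genes measured in both tissues were compared by limma's interaction term (bone change minus brain change), which covers tissue and age together. For 7 of the 12 this difference was called and positive, beside 13.7% of all 6742 genes measured in both tissues, and 11 of the 12 differences were positive. The largest were those of Col1a1 (log2 1.84 ± 0.45, limma, adjusted p = 0.00779), Col6a2 (1.36 ± 0.29, adjusted p = 0.00369), Col6a1 (1.28 ± 0.25, adjusted p = 0.00211) and Col4a2 (1.22 ± 0.22, adjusted p = 0.00123). Col16a1 (0.81 ± 0.22, adjusted p = 0.0147) and Col4a1 (0.70 ± 0.21, adjusted p = 0.0231) followed. Col9a2, with 1.13 ± 0.35 (adjusted p = 0.0264), lost its call without Ali35 bone replicate 4, WT brain replicate 1 or WT brain replicate 2, with adjusted p from 0.0516 to 0.054.

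For the other 5 genes a difference between the tissues was not shown. Col5a1 differed by 0.23 ± 0.20 (limma, adjusted p = 0.425), so its call in bone and not in brain does not show a difference between them. Col15a1 had 0.72 ± 0.33 (adjusted p = 0.121), Col18a1 0.57 ± 0.24 (adjusted p = 0.0895), Col7a1 0.36 ± 0.24 (adjusted p = 0.303) and Col3a1 -0.01 ± 0.30 (adjusted p = 0.99). Col1a2, Col2a1 and Col27a1, called in bone, were not measured in brain, so no such difference was tested for them.

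**Figure D5:**
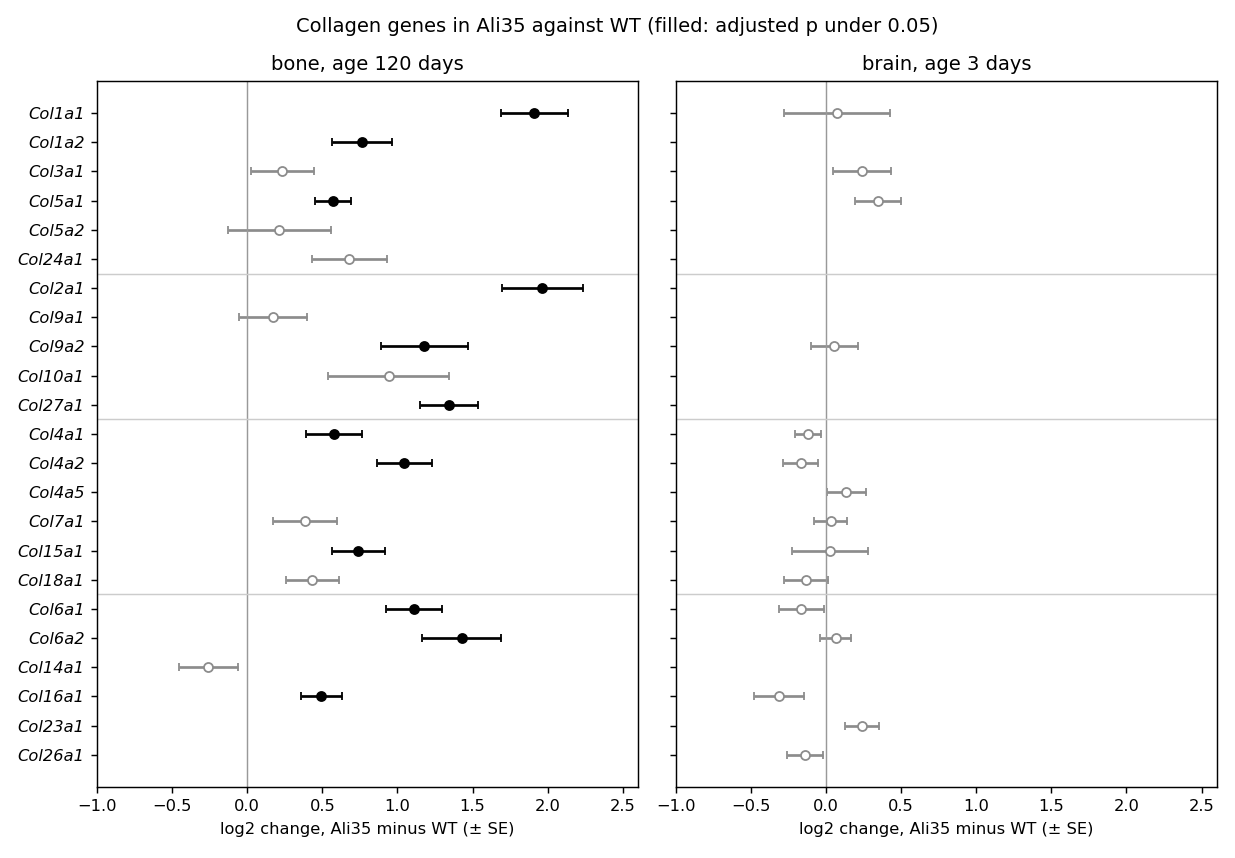
Log2 change (Ali35 minus WT, ± SE, 4 mice per group) of each collagen gene measured in bone at 120 days (left) or brain at 3 days (right), grouped by class, with filled points for an adjusted p under 0.05. In bone 12 of 20 points are filled and all of these lie to the right of 0, and in brain none of 15 is filled.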

How the data were processed

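RNA of 16 mice (4 per group) had been labelled with biotin and hybridized to 1 one-colour Illumina bead array each. The authors' deposited values are normalized intensities per probe, made with GenomeStudio 2011.1 per the submitters' processing notes. The normalization method is not given in the sources used here. Values below 0 show that background had been subtracted. A second table's 32 columns matched no sample label and were not used.

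Values below 16 were set to 16 and log2 was taken. Probes reaching 16 on at least 4 of a tissue's 8 arrays were kept. Each tissue was fitted with limma 3.58.1 (lmFit, eBayes) in R 4.3.3, without covariates, with Benjamini-Hochberg adjustment over all probes kept (12223 in bone, 10922 in brain) and an adjusted p under 0.05 for a call. The interaction of genotype and tissue used all 16 arrays and 9225 probes. A gene is given by its brightest probe in the tissue. All tests were two-sided. Fold changes are on the floored scale, and the number of arrays limits the precision. The fits were tested on simulated data.

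Values per array are given for every collagen gene called and for Col1a1, Col1a2, Col3a1, Col2a1, Col10a1, Col4a1, Col4a2 and Col6a1, and up to 4 genes of lowest p from each related list are named. Lum falls under 3 lists. Lama2, Tmem38b, Dpt and the bone markers named in brain were chosen after their values were seen. The collagen classes, lists, floor and filter were chosen with earlier results of these data known. Alternatives covered the floor, filter, scaling, variance model, array weights, a block by replicate number and leaving out each array. The mice carry separate numbers in the labels, and replicate numbers were not treated as pairs of Ali35 and WT mice in the main fit. Promoter windows and gene order come from RefSeq tables of GRCm38.p6. All 59 collagen probes matched RefSeq by Entrez identifier with the same symbol. Figures were drawn with matplotlib 3.10.9.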

Additional observations from a re-analysis of the deposited data

Results flagged for a closer look

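Of 70 groups of 4 arrays (each measured collagen gene in each genotype and tissue), 8 had 1 array set apart by Dixon's test. Chance alone sets apart about 1 group in 20 where values are normal and groups independent. The test used intensities without log2, and the 70 groups share the same 16 arrays. That rate therefore cannot show whether 8 is more than chance gives. Ali35 bone replicate 1 was the highest of its group for Col4a1 (intensity 2037) and Col6a2 (724), and Ali35 bone replicate 4 for Col27a1 (88.8). Ali35 brain replicate 1 was the highest for Col1a1 (139), Col3a1 (32.5) and Col5a1 (209.7). Col4a1 was highest on replicate 2 in both brain groups, at 446 in Ali35 brain and 496 in WT brain.

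The bone change minus the brain change differed from 0 by limma's interaction term for 7 of 12 genes measured in both tissues. It was 1.84 on the log2 scale for Col1a1, 1.13 for Col9a2, 0.70 for Col4a1, 1.22 for Col4a2, 1.28 for Col6a1, 1.36 for Col6a2 and 0.81 for Col16a1. Tissue and age cannot be told apart in this difference.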

How the results depend on the processing

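The direction of all collagen genes called in bone was the same under every alternative tried, and no collagen gene was called in brain under any of them. Over those brain alternatives 0.0739% to 7.69% of all probes were called. Of the 12 called in bone, 9 were called whichever array was left out, and 6 (Col1a1, Col5a1, Col2a1, Col27a1, Col4a2 and Col6a1) were called under all alternatives. The share of all probes called, in either direction, changed with the setting too, and was 24.6% in the main fit in bone. With no filter on dim probes, which tests 25697 probes, 6 collagen genes and 5.56% of all probes were called in bone. In bone the count was 11 with a floor of 8 (23.3% of all probes called) and 10 with a floor of 32 (22.6%). It was 12 with quantile normalization (24.7%), median centring (24.6%) or an intensity trend (27%), and 11 with array weights (27.7%). With 1 array left out it was 9 to 13 (13.4% to 21.6%). On every bone array 47.3% of probes already reached 16, so quantile normalization and median centring could change little and are weak checks. The interaction gave 6 to 8 called genes over its alternatives, with 18.9% to 27.3% of all probes called. Same-numbered Ali35 and WT arrays had deviations that correlated with r from -0.12 to 0.16 in bone and from 0.01 to 0.14 in brain. For brain replicates 2, 3 and 4 and bone replicate 1, the same-numbered WT array had the highest r of the 4. These small values do not settle whether same-numbered arrays shared a batch. With the replicate number as a block, 15 collagen genes were called in bone, 0 in brain and 7 for the interaction. The shares of all probes called were then 19.1%, 1.89% and 22.5%. The difference of Col1a1 minus Col1a2 between the genotypes was 1.02 to 1.25 with 1 array left out, where p = 0.0571 is the smallest the exact permutation test can give. No other Col1a1 or Col1a2 probe was on the array, so that alternative gave no value. The non-normalized table could not be used, so background correction and normalization by other methods were not tried.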

Other observations

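In brain the genes around collagen were nearly all uncalled, as the collagen chains were. Of 16 measured genes of collagen modification and crosslinking, 8 fibril partners, 7 basement membrane partners, 8 degradation genes and 3 receptors, none was called either way. Of all 7844 genes measured in brain only 1.95% were called higher and 1.49% lower, so no call among so few genes is near that share. Among 5 measured collagen regulators Sox5, a transcription factor of cartilage and of neurons, was higher in Ali35 brain (log2 0.43 ± 0.09, limma, adjusted p = 0.0414). Its call was lost without any one array except Ali35 brain replicate 4, with adjusted p up to 0.116. Among 7 measured glia markers Gfap, the astrocyte filament protein, was lower at 26.5 ± 2.97 in Ali35 brain and 39.7 ± 6.79 in WT brain (SD, n = 4 mice each; log2 -0.58 ± 0.13, limma, adjusted p = 0.0465), a call lost whichever array was left out, with adjusted p up to 0.123.

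In bone, where 13.5% of all measured genes were called higher and 10.7% lower, 5 fat cell markers were measured. Lep, the leptin gene, was lower in Ali35 bone (log2 -2.10 ± 0.23, limma, adjusted p = 0.000717), and Pnpla2, a lipase gene, was higher (0.66 ± 0.18, adjusted p = 0.0239), with its call lost without WT bone replicate 1, 2 or 4 (adjusted p up to 0.0632). Mpo, a neutrophil granule enzyme, was higher among 9 measured marrow and blood markers (log2 0.56 ± 0.11, limma, adjusted p = 0.00853). Vpreb1, a gene of B cell precursors, had -0.64 ± 0.21 over all arrays (limma, adjusted p = 0.0503) and was called lower without Ali35 bone replicate 1 (-0.41 ± 0.12, adjusted p = 0.0469), where Mpo was still called higher (0.57 ± 0.13, adjusted p = 0.0173). The summed intensity of those 9 markers was 140155 to 157841 in Ali35 bone and 130567 to 140037 in WT bone.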
